A study of Mus musculus with 10 samples.

Results

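The genes described here are 9 fatty acid elongases and desaturases of mouse liver, Elovl1, Elovl2, Elovl3, Elovl5, Elovl6, Scd1, Scd2, Fads1 and Fads2. They were taken by symbol from the 46071 gene rows of a count table, and the set was chosen by gene family with the measured differences of FL and ML from control already in view, so the differences below are descriptions and their p-values are no independent support. All 9 passed the filter on low counts, as did 14820 genes in all. RNA sequencing of poly(A) RNA was deposited as 10 liver libraries of offspring in 3 groups. The 4 control libraries are of mice with parents that were both IRlox/lox without the Cre driver (Albumin-Cre-/-), from control stock crossed for 4 generations to lessen epigenetic memory of Cre. The 3 FL libraries are of offspring of LIRKO fathers mated to control mothers, and the 3 ML libraries of offspring of the reverse cross, in which the mother was LIRKO. LIRKO mice are IRlox/lox and Albumin-Cre+/-, and the albumin promoter drives Cre in hepatocytes, so they lack the insulin receptor there. All parents thus carried the floxed receptor gene. Whether the offspring themselves carried Cre is not in the labels, nor are their sex, age, feeding state, time of collection or whether each library came from its own animal. All p-values therefore rest on library-to-library spread, which may be technical.

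Elongases (Elovl genes) add carbon pairs to fatty acyl chains in the endoplasmic reticulum, using malonyl-CoA, and desaturases put in double bonds with electrons passed on by cytochrome b5. Elovl6 lengthens palmitate to stearate, Scd1 turns stearate into oleate, and Elovl5, Elovl2, Fads1 and Fads2 build long polyunsaturated fatty acids from dietary ones. In liver, several of these genes are targets of SREBP transcription factors, which insulin and the liver X receptors raise and polyunsaturated fatty acids lower.

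Totals ran from 18655506 to 39379940 counts per library. Levels are given as CPM, the counts relative to a library total scaled by a TMM factor, and between genes as TPM, which also divides by exon length. Hepatocyte markers (Alb, Apoa1, Ttr, Tat, Cps1 and Hnf4a) summed to 54053 to 95441 CPM over all libraries. The receptor gene Insr (ENSMUSG00000005534, chromosome 8, 3122061 to 3279617 on GRCm38) was at 85.6 ± 29.5 CPM (SD, n = 4) in controls. FL had 65.5 ± 10.5 CPM (SD, n = 3), and ML had 45.9 ± 15.4 CPM (SD, n = 3), with all ML libraries below all controls. It did not pass in any comparison, and a count over the whole gene says little of a deletion of part of it. ML 9 stood apart: genes with under 1000 bp of exon lay a median of 1.22 above their own means there on the log2 scale, against 0.28 in control 1, 0.19 in ML 10 and between -0.39 and -0.12 in the other libraries.

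Scd1, Elovl5 and Elovl3 lay lower in the offspring of LIRKO fathers and of LIRKO mothers than in controls, by 2.69-fold to 5.60-fold. Elovl6, Elovl1 and Fads2 were above every control in FL, with fitted values below control in ML, and Fads1, Elovl2 and Scd2 had fitted values within 1 SE of control in FL. None of the 9 passed at an adjusted p under 0.05 in edgeR's quasi-likelihood test over all genes, in FL, in ML or in the average of both against control. The lowest adjusted p was 0.406 in FL, 0.301 in ML and 0.204 for the average. Of all genes tested, 0.0135% passed in FL, 0% in ML and 0% for the average. At an unadjusted p under 0.05 the count was 3 of 9 in each of these comparisons, all 3 of them lower (Scd1, Elovl5 and Elovl3), where 1.9% of all genes were past it and lower in FL, 7.33% in ML and 3.79% for the average (3.53%, 16.1% and 5.34% in either direction). Below 0 were 4 of the 9 in FL, beside 55.3% of all genes, 9 of the 9 in ML, beside 52.9%, and 7 of the 9 for the average, beside 52.9%. Their median log2 fold change was 0.02 in FL, -0.44 in ML and -0.16 for the average. DESeq2 called 2 members in FL (Elovl3 and Elovl5), where it called 0.353% of all genes, 2 in ML (Elovl5 and Scd1), where it called 0.312%, and 3 for the average (those 3 genes), where it called 0.258%. limma-voom called none of the 9 in any comparison, with 3 at an unadjusted p under 0.05 in each. FL and ML are set against the same 4 controls.

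**Figure D1:**
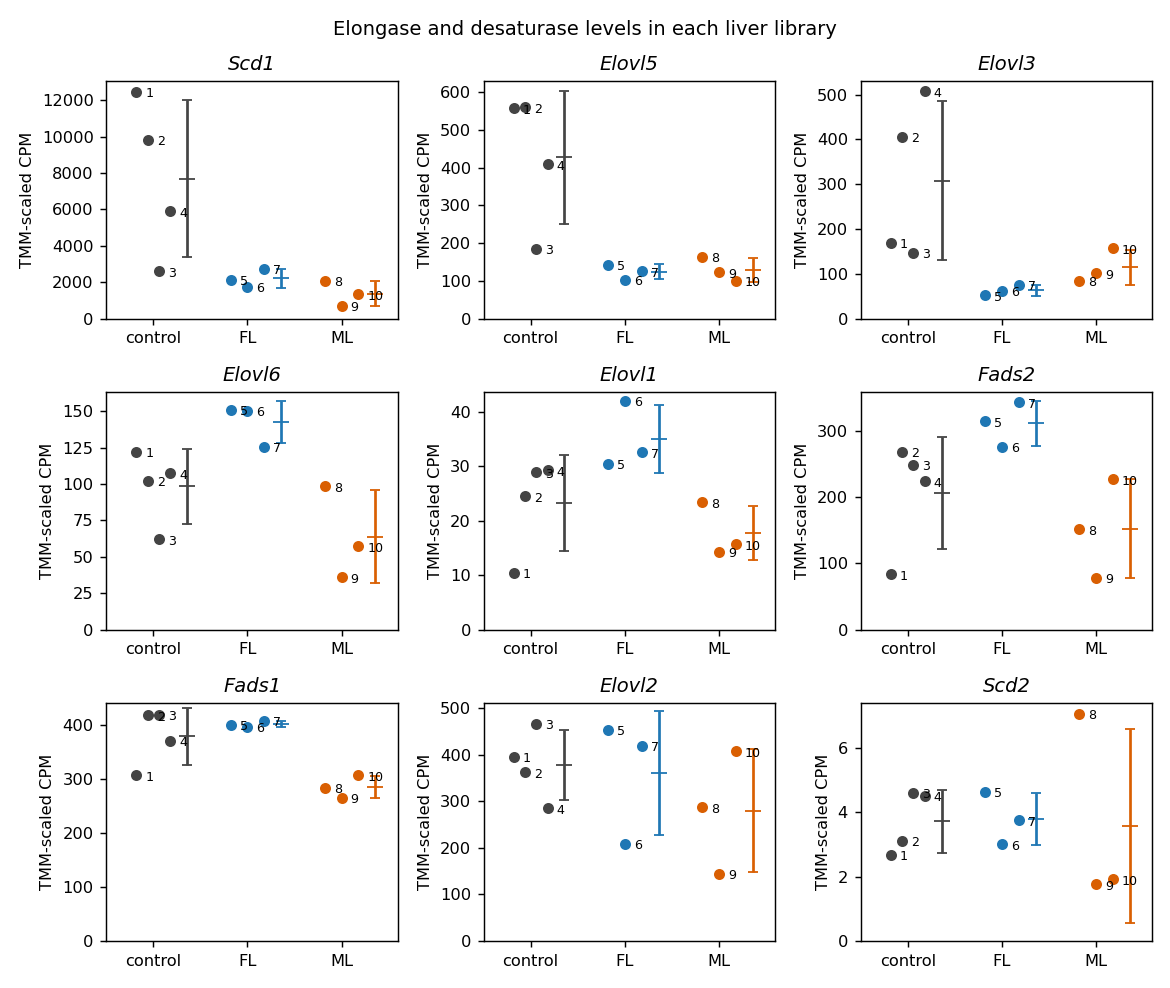
TMM-scaled CPM of the 9 genes in each library. Points are libraries, numbered as in the labels, and bars are the group mean ± SD (control n = 4, FL n = 3, ML n = 3). For Scd1 and Elovl5, controls 1, 2 and 4 lie far above all 6 libraries from offspring of LIRKO parents, and control 3 lies near them.

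Scd1, the main stearoyl-CoA desaturase of mouse liver (ENSMUSG00000037071, chromosome 19, 44394455 to 44407879, minus strand), had 12470, 9820, 2611 and 5893 CPM in controls 1 to 4. FL 5, FL 6 and FL 7 had 2148, 1747 and 2745 CPM, and ML 8, ML 9 and ML 10 had 2066, 718 and 1343 CPM. All ML libraries lay below all controls, while FL 7 lay above control 3, the lowest control. Controls averaged 7699 ± 4336 CPM (SD, n = 4). FL averaged 2213 ± 502 CPM (SD, n = 3), and ML averaged 1376 ± 675 CPM (SD, n = 3). The log2 fold change was -1.80 (SE 0.53) in FL and -2.48 (SE 0.55) in ML, with edgeR adjusted p of 0.915 and 0.301. Without control 1 and ML 9, the ML value was -1.83. In FL it was -2.09 without control 3.

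Elovl5, which elongates polyunsaturated fatty acids (ENSMUSG00000032349, chromosome 9, 77917364 to 77984519), was the member with no overlap in either offspring group. Its level was 558, 560, 186 and 409 CPM in controls 1 to 4, 143, 103 and 126 CPM in FL 5 to FL 7, and 163, 123 and 99.7 CPM in ML 8 to ML 10. Control 3 was again the lowest control, and ML 8 came nearest to it. The log2 fold change was -1.79 (SE 0.40) in FL and -1.73 (SE 0.40) in ML, or 3.45-fold and 3.33-fold lower, with edgeR adjusted p of 0.460 and 0.301. For FL and ML averaged, Elovl5 lay at -1.76 (SE 0.32), and its edgeR adjusted p was 0.204, the lowest among the 9 genes and the 9th lowest p of all genes. Elovl5 was the 1 member whose 6 offspring libraries all lay below all controls, as for 0.425% of all genes. The difference between FL and ML was -0.05 (SE 0.41).

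Promoter sequence is shown for 1 gene of the group that was lower in both kinds of offspring and 1 that was not, Elovl5 and Elovl6. A RefSeq window (GRCm38.p6) was found for 5 of the 9 genes, Elovl1, Elovl2, Elovl5, Elovl6 and Fads2, and the 250 bases before the start site were searched on both strands for CCAAT (bound by NF-Y), GGGCGG (bound by SP factors), CACGTG (the E-box), TCACNCCAC (a sterol response element) and the nuclear receptor half-site AGGTCA repeated in the same direction with a spacer of 1 or 4 bases. Capitals mark a match on either strand, and bases that GENCODE annotates as exon are left out. The sequences are chr9:77917115-77917363 and chr3:129532136-129532354, both on the plus strand.
Elovl5: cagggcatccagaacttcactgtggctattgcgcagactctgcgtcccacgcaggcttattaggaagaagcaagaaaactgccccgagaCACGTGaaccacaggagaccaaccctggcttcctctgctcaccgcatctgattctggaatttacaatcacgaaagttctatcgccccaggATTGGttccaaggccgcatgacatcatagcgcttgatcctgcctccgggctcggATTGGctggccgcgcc
Elovl6: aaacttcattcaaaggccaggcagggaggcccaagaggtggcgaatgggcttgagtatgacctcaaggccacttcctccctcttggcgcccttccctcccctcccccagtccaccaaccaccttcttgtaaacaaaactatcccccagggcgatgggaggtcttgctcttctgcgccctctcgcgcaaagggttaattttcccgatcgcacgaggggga
The Elovl5 window held 2 CCAAT matches, which 33.8% of all 32851 promoter windows hold at least once, and 1 CACGTG match, which 6.02% hold. The Elovl6 window held none of the 6 motifs. A window of Elovl1, which was not lower in both groups, also held 1 CCAAT match, overlapping a GGGCGG match. GGGCGG, in 32.7% of all windows, was found in those of Elovl1, Elovl2 and Fads2, and 243 of the 250 bases of the Fads2 window are annotated as exon. TCACNCCAC, in 1.05% of all windows, and the repeats, in 0.0335% and 0.0152%, were in none of the 5 genes' windows.

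Elovl3, which elongates saturated and monounsaturated chains and in mouse liver is known for male-biased and daily rhythmic expression (ENSMUSG00000038754, chromosome 19, 46131897 to 46135694), had 169, 406, 147 and 508 CPM in controls 1 to 4. Levels were 51.8, 61.7 and 75.8 CPM in FL 5 to FL 7 and 84.3, 101 and 157 CPM in ML 8 to ML 10. Every FL library lay below every control and every ML library, and ML 10 lay above control 3. The log2 fold change was -2.29 (SE 0.48) in FL and -1.43 (SE 0.46) in ML, with edgeR adjusted p of 0.406 and 0.301. FL against ML was at -0.86 (SE 0.48), with an edgeR adjusted p of 0.304, so a difference between the offspring groups was not shown.

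Control 3 was the lowest control for Scd1, Elovl5, Elovl3 and Elovl6, and it also held transcripts of fat cells. Ucp1, which marks brown fat, had 296 counts in control 3, 1 in control 2 and 0 in the 8 other libraries. Plin1 had 69 counts in control 3, 16 in ML 8, 1 each in ML 9 and ML 10 and 0 elsewhere. Adipoq had 94 counts in control 3, 65 in ML 8, 30 in ML 9 and at most 1 in any other library. The 6 adipocyte markers (Adipoq, Plin1, Lep, Retn, Cfd and Fabp4) summed to 11.3 to 41.5 CPM in controls, with 7.00 to 13.7 in FL and 17.0 to 46.6 in ML, and none of them was at 0 in every library. Fabp4 was the largest part of this sum in every library. Control 1 had 34.4 CPM of Fabp4 and 0 counts of Adipoq, Plin1, Lep and Retn. Of the 7.00 CPM in FL 5, 6.89 came from Fabp4. The ranges thus mainly follow Fabp4 and are no measure of fat cells by themselves. The 3 adipocyte markers that passed the filter were all lower in FL at an unadjusted p under 0.05, as 1.9% of all genes were. None of the 3 was past it in ML, beside 16.1% of all genes. The 5 brown adipocyte markers summed to 0.408 to 11.9 CPM in controls, with 0.319 to 0.408 in FL and 0.248 to 40.0 in ML. The highest of these sums was that of ML 9, where Cox8b, also a muscle gene, had 39.2 CPM. Fat cells express Scd1 and brown fat expresses Elovl3, and the part of these cells in the levels was not tested. Fewer cells of a type and less RNA per cell cannot be told apart in bulk liver.

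Genes that followed the 3 in the libraries were sought by the root mean square difference in log2(CPM + 0.5), each gene centred on its own mean over the 10 libraries. Among 11184 other genes with a mean of at least 1 CPM, the nearest to Scd1 was Elovl5, at 0.51, followed by Pde4b, a cyclic AMP phosphodiesterase, at 0.59 and Me1, the cytosolic malic enzyme that makes NADPH, at 0.64. The median gene lay at 1.31 from Scd1. Nearest to Elovl5 were Pde4b at 0.32, Me1 at 0.33 and Pik3c2g at 0.40, and Scd1 was the 5th nearest. Nearest to Elovl3 were Pitx3 at 0.49, Insig2, which holds the SREBP escort SCAP in the endoplasmic reticulum, at 0.51 and Srgap3 at 0.53, and Elovl5 was the 17th nearest. For Elovl6 the nearest were Cbll1 at 0.25, Fgfr3 at 0.31 and Zfp329 at 0.31, for Elovl1 Timeless at 0.14, Tbc1d10b at 0.14 and Inppl1 at 0.15 and for Fads2 Nomo1 at 0.18, Pbx3 at 0.19 and Klhdc10 at 0.22. For Fads1 they were Pank2 at 0.13, Akap1 at 0.13 and Ahcyl1 at 0.14, for Elovl2 Casc4 at 0.13, Esyt2 at 0.14 and Serinc1 at 0.14 and for Scd2 Cavin1 at 0.21, Cd274 at 0.23 and Hspa4l at 0.25. These are descriptions over 10 libraries that differ in depth, and the labels give no batch. The part of depth and cell composition in the likeness was not tested.

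**Figure D2:**
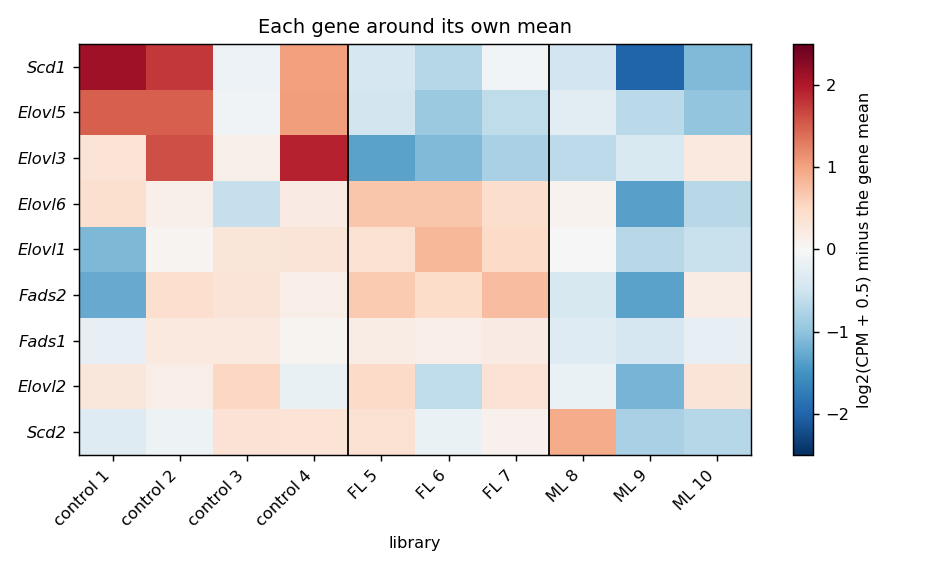
Each of the 9 genes in the 10 libraries, as log2(CPM + 0.5) minus the gene's own mean (colour, log2 scale), with lines between the control, FL and ML libraries. Scd1 and Elovl5 are above their means in controls 1, 2 and 4 and Elovl3 in all 4 controls, and 6 of the 9 genes have their lowest value in ML 9.

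Elovl6, Elovl1 and Fads2 had fitted values above control in FL and below control in ML, none of them past the test. Elovl6, the palmitate elongase (ENSMUSG00000041220, chromosome 3, 129532355 to 129638495), had 122, 102, 62.2 and 107 CPM in controls 1 to 4, 151, 150 and 126 CPM in FL 5 to FL 7, and 98.5, 36 and 57.3 CPM in ML 8 to ML 10. All FL libraries were above all others, and ML overlapped controls. The log2 fold change was 0.53 (SE 0.36) in FL, -0.62 (SE 0.36) in ML and 1.15 (SE 0.39) in FL against ML, where the edgeR adjusted p was 0.238 and DESeq2 gave an adjusted p of 0.0471. No member passed in FL against ML by edgeR, where 0.00675% of all genes did. At an unadjusted p under 0.05, 3 of the 9 were higher in FL (Elovl6, Elovl1 and Fads2) and 0 lower, where 20% of all genes were past it and 12.4% past it and lower. Single libraries moved this count: it was 1 of the 9 without FL 6 and 1 without ML 9, and without ML 9 the genes past it in all were 733 of 15305, beside 2964 of 14820 with it. Below 0 were 2 of the 9, beside 47.9% of all genes. DESeq2 called 1 member beside 13.2% of the 1883 genes it left in that comparison, and Elovl1 and Scd2 were not among those genes. Without control 1 and ML 9, Elovl6 was at 0.87 in FL against ML.

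Fads2, the desaturase that begins polyunsaturated fatty acid synthesis (ENSMUSG00000024665, chromosome 19, 10062765 to 10101746, minus strand), had 83.4, 269, 249 and 224 CPM in controls 1 to 4. It had 315, 276 and 343 CPM in FL 5 to FL 7 and 152, 78.2 and 227 CPM in ML 8 to ML 10. The FL libraries were again above all others. The log2 fold change was 0.59 (SE 0.43) in FL, -0.44 (SE 0.44) in ML and 1.03 (SE 0.47) in FL against ML. Elovl1, the ubiquitous elongase of saturated very long chains (ENSMUSG00000006390, chromosome 4, 118428093 to 118432953), had 10.5, 24.5, 28.9 and 29.3 CPM in controls 1 to 4, 30.5, 42.0 and 32.6 CPM in FL and 23.4, 14.3 and 15.7 CPM in ML 8 to ML 10. Its log2 fold change was 0.59 (SE 0.36) in FL, -0.39 (SE 0.37) in ML and 0.98 (SE 0.39) in FL against ML. Fads2 and Elovl1 were lowest in control 1 and ML 9, the libraries in which short genes were highest. Without those libraries FL against ML was at 0.72 for Fads2 and 0.84 for Elovl1. With 1 surrogate variable in the fit these became 0.14 and 0.34, and ML against control turned to 0.40 for Fads2 and 0.20 for Elovl1.

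Fads1, the later desaturase of the polyunsaturated pathway (ENSMUSG00000010663, chromosome 19, 10182888 to 10196877), had the smallest standard errors of the 9. It had 307 to 420 CPM in controls, with 397 to 409 in FL and 266 to 308 in ML, and log2 fold changes of 0.09 (SE 0.25) for FL, -0.41 (SE 0.25) in ML and 0.49 (SE 0.27) in FL against ML. FL and ML did not overlap for Fads1, but FL and ML did not overlap for 31.7% of all genes, and for 5 of the 9 (Elovl1, Elovl3, Elovl6, Fads1 and Fads2). Of those 5, Elovl3 was lower in FL, as 15.1% of all genes were. In FL against control, 5 of the 9 did not overlap, beside 5.71% of all genes, with 2 of the 9 lower, beside 2.92%. In ML against control 2 did not overlap, beside 5.03%, both lower, beside 2.86%. Elovl2, which elongates the longer polyunsaturated chains towards docosahexaenoate (ENSMUSG00000021364, chromosome 13, 41182381 to 41220405, minus strand), had 285 to 467 CPM in controls, with 209 to 454 in FL and 145 to 408 in ML. Its log2 fold change was -0.06 (SE 0.39) in FL and -0.43 (SE 0.40) in ML, and all groups overlapped.

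Scd2, the desaturase isoform of brain and immature liver (ENSMUSG00000025203, chromosome 19, 44293674 to 44306864), was barely present, with 27 to 269 counts per library. It had 2.68 to 4.61 CPM in controls, 3.01 to 4.63 in FL, and 7.07, 1.76 and 1.92 CPM in ML 8, ML 9 and ML 10. Its log2 fold change was 0.02 (SE 0.49) in FL and -0.05 (SE 0.49) in ML, and all groups overlapped. Without ML 8, Scd2 was at -1.02 in ML and 1.04 in FL against ML. Scd2 and Scd1 lie 87590 bases apart on chromosome 19, as Fads2 and Fads1 lie 81141 bases apart, and 5 of the 9 genes are on that chromosome. Of the distinct 50-base stretches in Scd1 transcripts, 4.56% also occur in transcripts of other genes, mainly Scd3, Scd2 and Scd4, and of those of Scd2 3.97%. How reads shared by genes were assigned is not given in the sources used here. The shared part was 3.98% for Elovl6 and at most 0.152% for the 6 others.

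**Figure D3:**
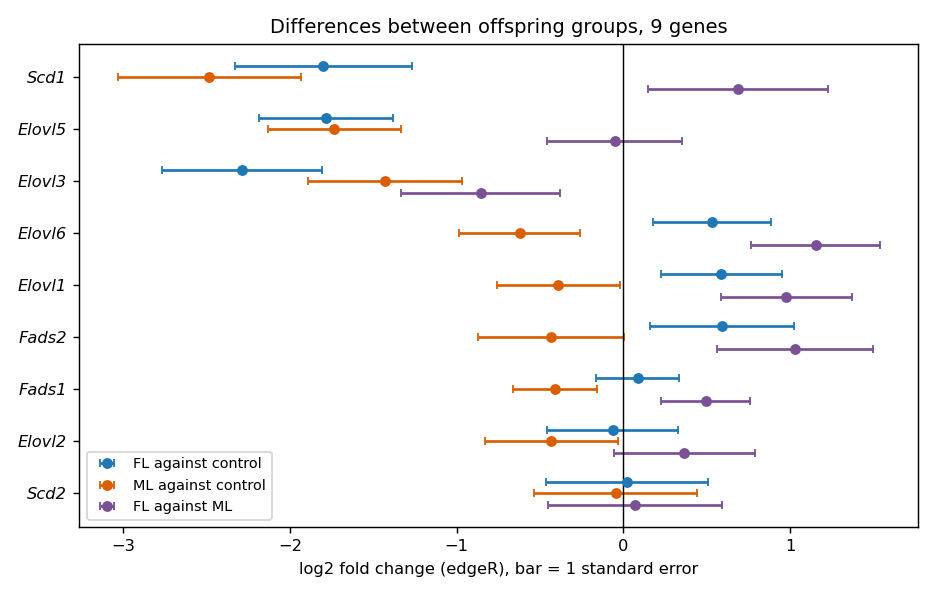
Log2 fold changes of the 9 genes in FL against control, ML against control and FL against ML. Points are edgeR estimates and bars 1 standard error. Scd1, Elovl5 and Elovl3 lie below -1 against control in both offspring groups, and Elovl6, Elovl1 and Fads2 lie on opposite sides of 0 in FL and in ML against control.

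Per exon length, Scd1 outweighed the other members in every library. In controls it had 3332 ± 1564 TPM (SD, n = 4), ahead of Elovl3 at 362 ± 248 (SD, n = 4), Elovl5 at 264 ± 103 (SD, n = 4), Elovl2 at 208 ± 40.8 (SD, n = 4), Fads1 at 176 ± 43.2 (SD, n = 4) and Fads2 at 144 ± 66.7 (SD, n = 4). Elovl6 followed at 33.6 ± 8.85 TPM (SD, n = 4), Elovl1 at 19.7 ± 9.15 (SD, n = 4) and Scd2 at 1.55 ± 0.580 (SD, n = 4). From Elovl3 to Fads2, neighbours in this order lay within their SDs of each other. In FL, Scd1 had 1092 ± 212 TPM (SD, n = 3), followed by Fads2 at 229 ± 25.5, Elovl2 at 222 ± 88.2, Fads1 at 203 ± 14.2, Elovl5 at 86.0 ± 18.7, Elovl3 at 76.8 ± 9.05, Elovl6 at 54.0 ± 8.99, Elovl1 at 31.1 ± 5.25 and Scd2 at 1.70 ± 0.469. Elovl3 and Elovl5, next after Scd1 by the control means, thus stood behind Fads2, Elovl2 and Fads1 there. They did so in control 3 too, with Elovl3 at 169 and Elovl5 at 119 TPM. Elovl2 was at 266, Fads1 at 197 and Fads2 at 170 TPM in control 3. In ML, Scd1 had 533 ± 423 TPM (SD, n = 3), followed by Elovl2 at 129 ± 84.9, Fads1 at 100.2 ± 46.3, Elovl3 at 96.0 ± 50.7, Fads2 at 84.2 ± 56.0, Elovl5 at 62.9 ± 39.5, Elovl6 at 18.8 ± 15.3, Elovl1 at 11.6 ± 7.65 and Scd2 at 1.30 ± 1.46. From Elovl2 to Elovl5 the ML order was not resolved beyond these SDs. The 9 genes together held 2174 to 6032 TPM in controls, with 1622 to 2193 in FL and 311 to 1642 in ML, and the lowest of these sums was that of ML 9. Scd1 made up 55.4 to 84.8% of that sum in controls, with 52.6 to 58.3% in FL and 40.8 to 59.1% in ML.

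Ratios of TPM within a library do not depend on the scaling between libraries. Scd1 over Elovl6, the step after stearate against the step before it, was 55.2 to 134 in controls, with 15.3 to 28.7 in FL and 26.2 to 30.8 in ML. No offspring library overlapped the controls in this ratio, while FL and ML overlapped. Elovl6 over Elovl5 was 0.100 to 0.183 in controls, with 0.546 to 0.796 in FL and 0.160 to 0.330 in ML, with FL above all others. Fads1 over Fads2 was 1.07 to 2.52 in controls, with 0.816 to 0.985 in FL and 0.927 to 2.33 in ML. Elovl5 over Elovl2 was 0.447 to 1.74 in controls, with 0.339 to 0.556 in FL and 0.275 to 0.956 in ML, and Scd1 over Scd2 was 633 to 5200 in controls, with 518 to 816 in FL and 327 to 780 in ML. Both offspring groups overlapped controls in these 2 ratios. The 5 ratio pairs were chosen with the direction of these genes known, so no test is given.

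Genes that supply or regulate these enzymes were taken from lists chosen with earlier results known. No member of any list passed in edgeR's test over all genes, and counts below are at an unadjusted p under 0.05, past which 3.53% of all genes lay in FL and 16.1% in ML. That share in ML hung on single libraries, as 2392 of 14820 genes were past it with all libraries, 669 of 15305 without ML 9 and 5177 of 14758 without control 1. Of 12 genes of malonyl-CoA and palmitate synthesis, 2 were lower and 0 higher in FL, and 7 were lower and 0 higher in ML. The median log2 fold change was -0.17 in FL and -1.03 in ML, beside -0.05 and -0.05 over all genes. Fasn, the fatty acid synthase, had 216, 353, 242 and 619 CPM in controls 1 to 4, 452, 274 and 170 CPM in FL and 125, 59.5 and 32.6 CPM in ML 8 to ML 10. Its log2 fold change was -0.26 (SE 0.52) in FL and -2.30 (SE 0.56) in ML, where all libraries were below all controls. Acacb, a mitochondrial acetyl-CoA carboxylase, was at -2.14 (SE 0.52) in ML. Me1 was at -1.46 (SE 0.38) in FL and -1.11 (SE 0.38) in ML. Acss2, which makes acetyl-CoA from acetate, was at -0.76 (SE 0.33) in FL and -1.15 (SE 0.33) in ML.

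Of 14 transcriptional regulators, 1 was lower in FL, and 3 were lower and 2 higher in ML. Insig2 had 232, 537, 136 and 242 CPM in controls 1 to 4, 53.4, 50.8 and 103 CPM in FL and 159, 93.4 and 170 CPM in ML 8 to ML 10, which put FL at -2.05 (SE 0.49) on the log2 scale. Insig1, its SREBP-induced relative, was at -1.07 (SE 0.41) in ML and Nr1h3, the liver X receptor alpha, at 1.19 (SE 0.41). Nr1h3 had 125, 416 and 143 CPM in ML 8 to ML 10, beside 73.5 to 130 in controls. Rxra, the shared partner of the liver X receptors, was second by p in FL at 0.31 (SE 0.37). Of 13 genes of acyl-CoA synthesis and glycerolipid acylation, 1 was lower and 1 higher in FL, and 4 were lower and 1 higher in ML. Pnpla3, a lipase-like SREBP target, was at -3.30 (SE 0.91) in FL and -3.12 (SE 0.91) in ML, from 0.456 to 5.30 CPM in controls to 0.146 to 0.261 in FL and 0.0930 to 0.368 in ML. Acsl4, which activates arachidonate, was at 1.46 (SE 0.54) in FL, and Lpcat3, which puts polyunsaturated chains into phospholipids, at -1.0 (SE 0.36) in ML. Acsl4 had 322, 49.0 and 151 CPM in FL 5 to FL 7, beside 35.7 to 83.3 in controls.

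**Figure D4:**
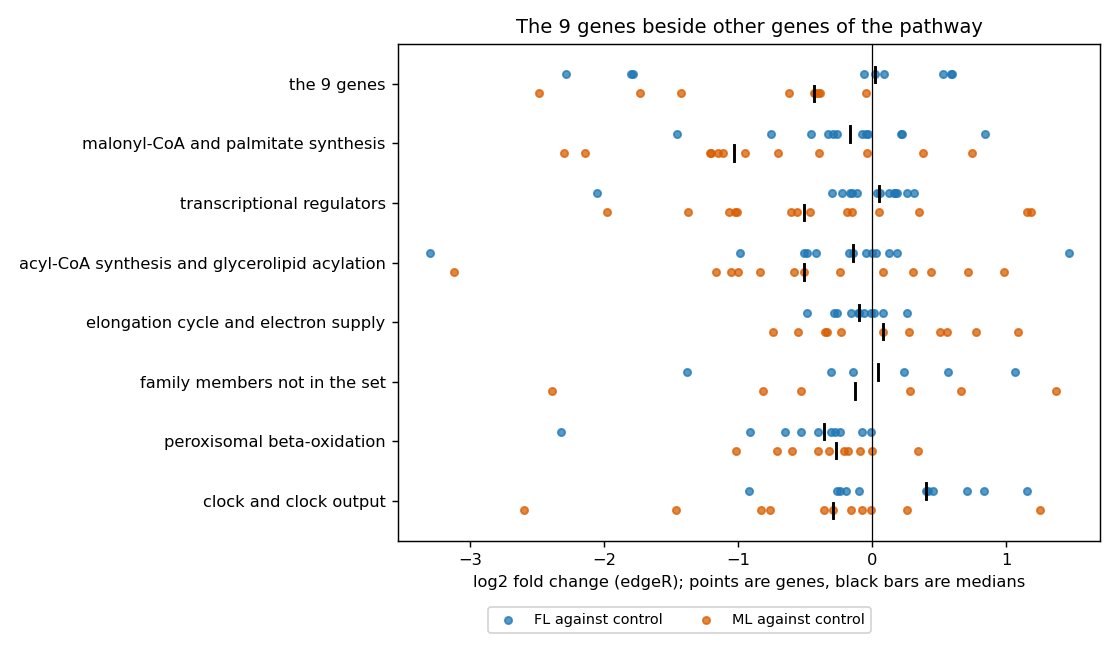
Log2 fold changes of the 9 genes and of 7 lists of related genes in FL against control and ML against control. Points are tested genes and black bars list medians. In FL the medians of the 9 genes and of the lists stay between -0.36 and 0.40, and in ML the lowest median is that of malonyl-CoA and palmitate synthesis at -1.03.

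The other enzymes of the elongation cycle and electron supply (11 genes) had 0 members past an unadjusted p of 0.05 in FL and 1 in each direction in ML, with medians of -0.10 and 0.08. Cyb5r3, a cytochrome b5 reductase, was at -0.74 (SE 0.32) in ML, and Cyb5a, cytochrome b5 itself, at -0.49 (SE 0.50) in FL and 1.09 (SE 0.49) in ML. Cyb5a had 1483, 4805 and 2103 CPM in ML 8 to ML 10, beside 851 to 2536 in controls. Cyb5b was at -0.29 (SE 0.30) in FL. Among family members outside the 9, 6 of 8 were tested, with 0 past that p in FL and 1 lower in ML. This was Scd3 at -2.39 (SE 1.00), on 10, 0 and 3 counts in ML 8, ML 9 and ML 10, and it shares sequence with Scd1. Fads3 was at -0.82 (SE 0.41) in ML and Degs2, a sphingolipid desaturase, at 1.07 (SE 0.81) in FL.

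All 10 peroxisomal beta-oxidation genes, which shorten very long chains, lay below 0 in FL, beside 55.3% of all genes. Past an unadjusted p of 0.05 there were 2 of them, both lower. In ML 9 of the 10 lay below 0, beside 52.9% of all genes, with 1 past that p, also lower. Abcd2, a peroxisomal carrier of very long chain acyl-CoA, was at -2.32 (SE 0.50) in FL and -0.71 (SE 0.47) in ML, and Acaa1b at -0.92 (SE 0.33) in FL. Of 11 tested clock genes, Per2 was at 1.15 (SE 0.32) and Cry1 at 0.84 (SE 0.41) in FL, while Cry1 was at 1.25 (SE 0.41) and Nr1d1, the repressor REV-ERB alpha, at -2.60 (SE 0.85) in ML. The list had 0 lower and 1 higher in FL, and 2 lower and 1 higher in ML. Nr1d1 ranged from 6.78 to 73.8 CPM in controls, with 13 to 59.1 in FL and 2.15 to 13.6 in ML. Elovl3 follows the clock in mouse liver, and the part of collection time in its levels was not tested.

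Markers of other liver cells were summed per library. Stellate cell markers were at 179 to 282 CPM in controls, with 168 to 199 in FL and 187 to 436 in ML. Kupffer cell markers were at 193 to 380 CPM in controls, with 194 to 281 in FL and 187 to 876 in ML, and endothelial markers at 116 to 148, 105 to 120 and 82.6 to 196 CPM. Cholangiocyte markers were at 29.0 to 56.0 CPM in controls, with 33.3 to 69.4 in FL and 22.5 to 69.6 in ML, T cell markers at 1.95 to 2.51, 1.57 to 2.58 and 2.54 to 10.2 CPM, and erythroid markers at 184 to 626, 127 to 249 and 313 to 2114 CPM. At an unadjusted p under 0.05, 3 of 5 tested erythroid, 3 of 6 cholangiocyte, 1 of 6 stellate cell (Des) and 1 of 4 tested T cell markers (Cd3d) were higher in ML. Of all genes, 16.1% were past that p in ML in either direction, with 7.33% past it and lower and the rest past it and higher. Without ML 9, 669 of 15305 genes were past it in either direction. Single libraries stood out among these markers, chosen after their values were seen. Hbb-bs, a beta-globin, had 1513 CPM in ML 9 beside 130 in ML 8 and 176 in ML 10, and Des had 30.2 CPM in ML 9 beside 3.68 and 2.48. Globin genes of the erythroid list have 667 to 812 bp of exon, and genes under 1000 bp lay high in ML 9. Cd3d had 5.61 CPM in ML 9 beside 0.814 and 0.620, and Krt19, a duct keratin, had 440 counts in ML 8 beside 57 in ML 9 and 19 in ML 10. No tested marker in these lists passed in edgeR's test over all genes, and none was at 0 in every library. Their part in the members' levels was not tested.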

How the data were processed

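Liver poly(A) RNA was measured in 10 libraries. The deposited table holds raw counts per gene, made by the authors with STAR and featureCounts on GRCm38, per the submitters' processing notes. The sources used here do not give versions, annotation release or strand setting. Symbols, positions and exon lengths came from GENCODE M21 (GRCm38), which matched 45229 of 46071 rows.

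The count test was edgeR's robust quasi-likelihood F test (version 4.0.16, R 4.3.3) over all 10 libraries with a coefficient per group. Low genes were removed by filterByExpr at a minimum of 10 counts, and libraries were scaled by TMM. P-values are two-sided and Benjamini-Hochberg adjusted over 14820 genes, with 7 residual degrees of freedom. The standard error (SE) is the log2 fold change divided by the square root of F. Alternatives used DESeq2 1.42.0, limma 3.58.1 and sva 3.50.0. The fit was tested on simulated data. The members, the gene lists and the alternatives were chosen with earlier results of these data known. From each pathway list the text names the 2 lowest-p genes in FL and in ML, and for each member the 3 nearest genes over the libraries; a peroxisomal gene that this rule picks is not reported here; other genes named, such as Fasn and Adipoq, were chosen after their values were seen.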

Additional observations from a re-analysis of the deposited data

How the results depend on the processing

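The number of the 9 genes passing at an adjusted p under 0.05 was 0 in each comparison by edgeR's quasi-likelihood test, also with other scaling factors, other filters, limma-voom, a length and GC trend removed, 1 surrogate variable, or control 1 and ML 9 left out. By DESeq2 it was 2 in FL, 2 in ML, 1 in FL against ML and 3 for the average, and the cause was not tested. Leaving out each library in turn gave 0 to 0. On library totals alone the median of all genes moved to 0.08 in FL, -0.25 in ML and 0.37 in FL against ML.

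Scd1, Elovl5 and Elovl3 lay below 0 against control under every alternative run. Without each library in turn, FL ran from -2.09 to -1.46 for Scd1, -2.04 to -1.63 for Elovl5 and -2.52 to -1.94 for Elovl3, and ML from -2.90 to -2.15, -1.98 to -1.57 and -1.74 to -1.08.

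Log2 fold changes that changed sign were, in FL, Elovl2 (0.081 on library totals) and Scd2 (-0.0016 with upper-quartile factors, -0.097 without control 1 and ML 9, -0.018 with the trend removed, -0.12 with the surrogate variable). In ML they were Elovl1 (0.20) and Fads2 (0.40) with the surrogate variable, and Scd2 (0.018, 0.15, 0.15 and 0.43 in the order just given). In FL against ML they were Elovl5 (0.26 on library totals, 0.023 with the surrogate variable) and Scd2 (-0.020, -0.24, -0.17 and -0.55). For the average they were Elovl1 (-0.071), Elovl6 (0.22) and Fads2 (-0.020) without control 1 and ML 9, Elovl6 (0.0053) with the trend removed, and Scd2 (0.0082, 0.024, 0.067 and 0.16, and 0.020 on library totals and 0.0022 with no filter). The causes were not tested.

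Single libraries also turned the sign. In FL the ranges were -0.26 to 0.21 for Elovl2, -0.14 to 0.17 for Scd2 and -0.0032 to 0.14 for Fads1. In ML the range was -1.02 to 0.29 for Scd2. In FL against ML the ranges were -0.20 to 0.16 for Elovl5 and -0.26 to 1.04 for Scd2. For the average they were -0.14 to 0.22 for Elovl1, -0.27 to 0.10 for Elovl6, -0.50 to 0.15 for Scd2 and -0.18 to 0.24 for Fads2.

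No paired analysis was possible because the labels give no pairing. With 27 to 269 counts per library, Scd2 is the gene that depth limits most. The fit of the compared groups only was not run for the average, which uses all 3 groups.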
